A study of Mus musculus with 4 samples.

Results

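The cytosolic ribosomal protein genes encode the proteins of the ribosome that translates nuclear messenger RNA. They were taken by symbol, as every gene row named Rpl or Rps followed by a number and at most one of the letters a, x or l, together with Rpsa, Rplp0, Rplp1 and Rplp2, without rows named as pseudogenes by the ending -ps. This gave 83 of 55450 gene rows, of which 32 carry small-subunit names, 48 large-subunit names and 3 are the acidic stalk genes. GENCODE M21 lists 80 of them as protein-coding, Rps4l as a transcribed processed pseudogene, and Rpl6l and Rpl32l as processed pseudogenes. The rule leaves out some genes that also encode ribosomal proteins, among them Fau, Rps3a1 and Rack1, and these are described with the related pathways.

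RNA was sequenced from cells of mesenteric lymph nodes, the nodes that drain the intestine. All mice were wild-type C57BL/6J. Cells bearing CD11c, an integrin found on dendritic cells and some other leukocytes, were enriched with magnetic beads, and each sample pooled 2 nodes. Every pool supplied 1 agonist well (Ffar2 agonist, 10 µM) and 1 control well (water), and both were cultured for 6 h. Ffar2 is a surface receptor that senses short-chain fatty acids, and the labels do not name the compound used as agonist. There were 2 agonist libraries and 2 control libraries, both groups numbered 2 and 3, and same-numbered libraries hold cells of the same pool. Libraries came from the SMART-seq v4 kit, which amplifies complementary DNA from very little RNA and does not mark strand. The design asks how the ribosomal protein genes stood in agonist against control wells, and each pair of wells gives its own answer.

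A ribosome holds a single copy of nearly every one of these proteins, so cells have to make them in matched amounts. In mammals their messengers begin with a C followed by a run of pyrimidines, the terminal oligopyrimidine (TOP) motif, through which mTORC1 and the protein Larp1 tie their translation to nutrient and growth signals. Transcript levels therefore do not report how much protein is made. In dendritic cells, activation is known to change the rate of protein synthesis.

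The sequences around the annotated start show the motif and how it varies among the members that the results return to. Each line gives 40 bases before and 15 bases from the start, 5′ to 3′ on the gene's strand, from RefSeq on GRCm38.p6, with runs of at least 5 C or T in capitals. Rps6 and Rps27 are shown as members with the motif at the annotated start, Rps27l and Rpl39l as paralogues of Rps27 and Rpl39, and Rpl13 and Rps2 because their values stood apart from the other members.
Rps6: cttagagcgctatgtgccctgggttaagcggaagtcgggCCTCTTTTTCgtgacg
Rps27: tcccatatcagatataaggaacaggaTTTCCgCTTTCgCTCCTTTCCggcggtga
Rps27l: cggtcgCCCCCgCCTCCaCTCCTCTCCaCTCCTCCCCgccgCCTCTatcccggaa
Rpl39: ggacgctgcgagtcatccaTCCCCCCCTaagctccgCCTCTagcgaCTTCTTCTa
Rpl39l: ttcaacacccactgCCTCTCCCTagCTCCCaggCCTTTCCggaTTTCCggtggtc
Rpl13: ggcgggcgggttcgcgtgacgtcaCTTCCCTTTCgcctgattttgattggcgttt
Rps2: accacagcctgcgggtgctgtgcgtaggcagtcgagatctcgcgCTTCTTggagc
The windows lie at chr4:86857353-86857407 on the minus strand for Rps6, chr3:90213634-90213688 on the minus strand for Rps27 and chr9:66946046-66946100 on the plus strand for Rps27l, for which the table lists 2 starts and the first is shown. Those of Rpl39 and Rpl39l lie at chrX:37085208-37085262 on the minus strand and chr16:10170188-10170242 on the plus strand. Rpl13 is at chr8:123102310-123102364 and Rps2 at chr17:24720023-24720077, both on the plus strand.

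RefSeq promoter windows were found for 61 of the 83 members. A run of at least 7 C or T on the gene's strand within 15 bases of the start was present in 34 of these 61 windows (55.7%), against 21.3% of the windows of 27025 genes. A C at the annotated start itself followed by 4 pyrimidines was present in 14 (23.0%) against 3.01%. In the whole window of 300 bases, read on both strands, CCGGAAG, a sequence bound by ETS-family factors, was found in 25 members (41.0%) against 9.93% of all genes. CTTTCC was found in 32 (52.5%) against 29.3%, and can overlap the pyrimidine run. GGGCGG was found in 36 (59.0%) against 38.2%, and TATAA in 18 (29.5%) against 28.0%. Such a match is a description of the letters and was not compared with the read counts.

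Between 43238375 and 59902172 reads per library were assigned to genes, and 23225 to 23770 genes had a read. The markers listed for CD11c+ dendritic cells were read in all libraries. Their 15 genes summed to 27479 and 31631 CPM (library-scaled counts, with TMM factors) in the agonist wells and to 32342 and 28195 CPM in the control wells. Values of a condition are given with replicate 2 before replicate 3 throughout. Itgax, which encodes CD11c, had 178 and 95.5 CPM in agonist wells and 189 and 105 CPM in control wells. Markers of other leukocytes were present as well, and their sums are given with the comparison of the pools. The libraries numbered 2 had reads of Xist and none of the Y-linked gene Ddx3y, and those numbered 3 the reverse, while the labels give no sex.

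Ribosomal protein genes took up a small part of these libraries. They held 1.09% of the gene-assigned reads in agonist replicate 2 (95% Wilson interval 1.088% to 1.094%) and 0.867% in agonist replicate 3 (0.865% to 0.869%). In the control wells they held 1.30% in replicate 2 (1.296% to 1.302%) and 0.884% in replicate 3 (0.881% to 0.886%). The intervals cover counting error only. The share was highest in control replicate 2, the wells numbered 3 lay closest together, and the ranges of the agonist and control wells overlapped. The 10 members with the most reads held 41.1% of all member reads. Another 299 gene rows are named as pseudogenes of members, 218 of them had a read, and together they had 16586 reads over all libraries. With these rows added, the shares became 1.10% and 0.874% in the agonist wells and 1.31% and 0.892% in the control wells. Reads that aligned to several places were not counted for any gene, so a member with near-identical copies can be undercounted, and how much was lost could not be read from the files.

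Reads were found for 82 members, and all 82 passed the expression filter. The exception was Rpl10l, a copy of Rpl10 used in the male germ line, with 0 reads in all libraries. A count of 0 allows up to 0.0606 and 0.0501 CPM in the agonist wells and 0.0694 and 0.0572 CPM in the control wells. Of the 82, 73 averaged at least 10 CPM and 9 less, namely Rps4l, Rpl23a, Rpl13a, Rps10, Rpl24, Rpl32l, Rpl3l, Rpl39l and Rpl6l. The members lie on 19 chromosomes, with 14 on chromosome 7 and 4 on the X chromosome.

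Levels can be compared between genes only per length, here as CPM per kilobase of exon. The members' median was 47.7 CPM per kilobase, against 2.00 over all 18297 tested genes. The 32 small-subunit genes had a median of 64.4, the 47 large-subunit genes with a read one of 34.5, and the 3 stalk genes one of 196 CPM per kilobase. Although the proteins are used in equal numbers, the per-length levels of the 73 members of at least 10 CPM spread over 36.9-fold, between 10.3 CPM per kilobase for Rps15a and 381 for Rplp0. The order depends on the length used: with the longest transcript in place of all exons, 6 of the 10 highest members stayed among the 10 highest.

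The highest level per length was that of Rplp0, at 381 CPM per kilobase, which encodes the base of the stalk that recruits translation factors. Its gene lies on chromosome 5, 115559467 to 115563727 (GRCm38). Rplp0 had 590.3 and 588.8 CPM in agonist wells, against 810.3 and 539.9 CPM in control wells. Rpl4, whose protein lines the exit tunnel for the growing chain, followed at 368 CPM per kilobase, with 721 and 637 CPM in agonist wells against 994 and 601 CPM in control wells. In both genes control replicate 2 was highest, and the other 3 libraries lay near each other. Rps27l came next at 298 CPM per kilobase and is described with its paralogue. Rplp1, which encodes another stalk protein, stood at 196 CPM per kilobase. Among the genes with a read, the lowest were Rpl3l, Rps10, Rpl6l, Rpl39l and Rpl24, between 0.370 and 0.867 CPM per kilobase.

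Some of these low members encode proteins that every ribosome holds. Rps10 had 62 and 78 reads in agonist wells and 69 and 34 in control wells, and Rpl24 had 41 and 43 reads in agonist wells and 44 and 53 in control wells. Rpl13a, which in human cells also takes part in translational silencing of inflammatory messengers, had 4.50 and 2.63 CPM in agonist wells and 3.97 and 3.58 CPM in control wells. In the annotation, 28.7% of the exonic bases of Rps10 are shared with another gene, among them the read-through gene RPS10-NUDT3, as are 47.0% of those of Rpl24, with Gm28037, and 35.4% of those of Rpl13a, with small nucleolar RNA and other genes. In all, 37 members overlap another gene in their exons and 11 of them over at least 20% of the exonic bases. Reads that overlap several genes were left out of the counts, so the values of these 11 are uncertain; their part in the low levels was not tested.

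**Figure D1:**
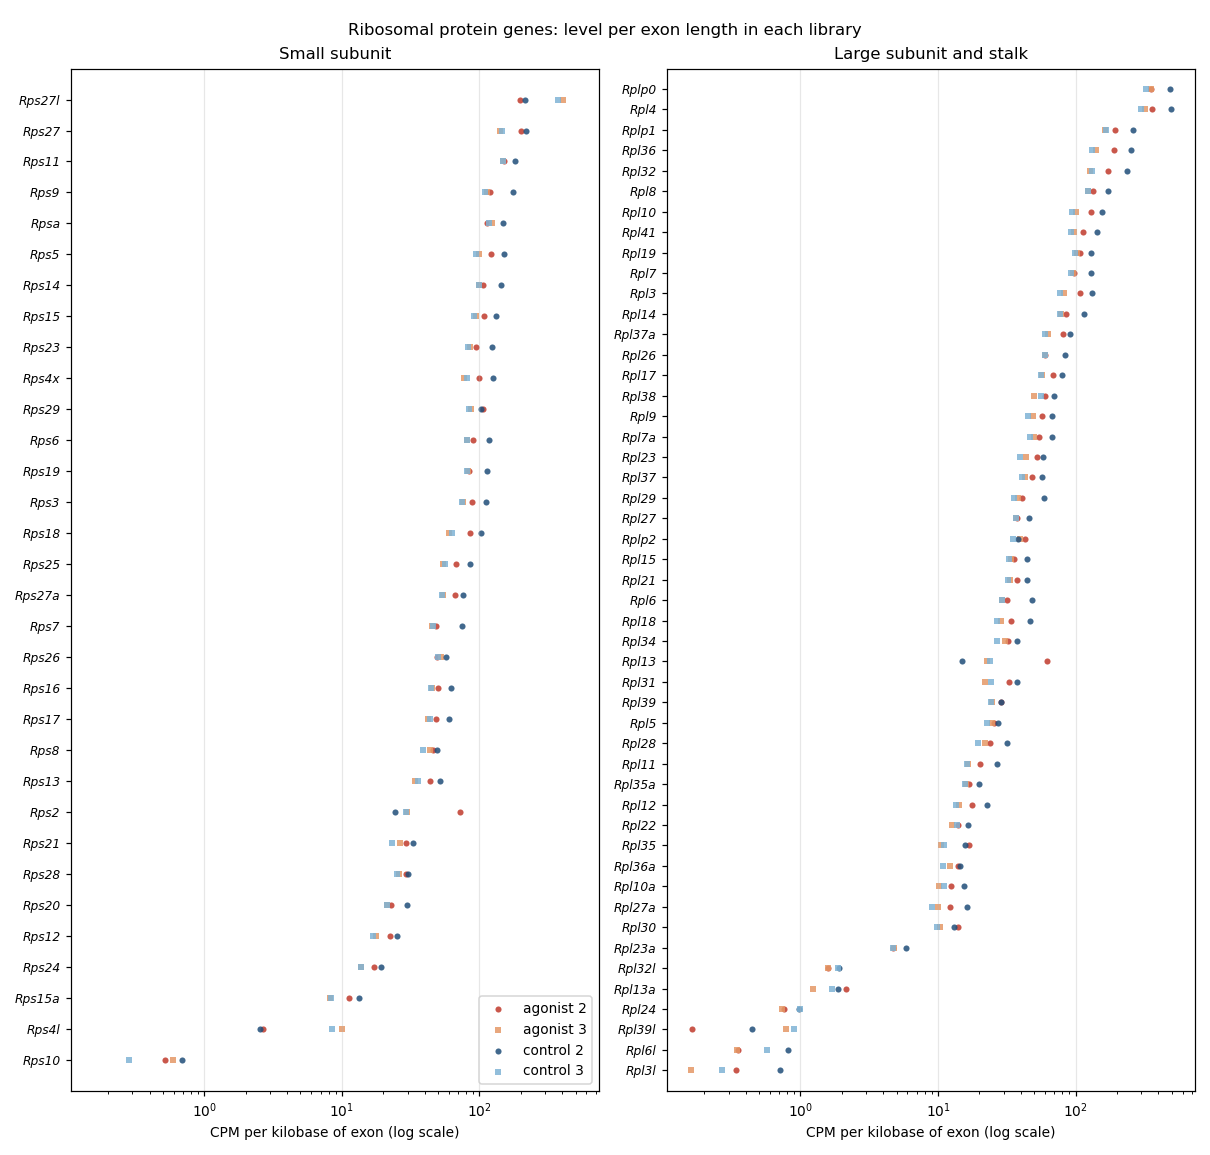
Level of the ribosomal protein genes per length, in CPM per kilobase of exon on a log axis, with 1 gene a row, ordered by level from the top, in a panel for the small subunit and one for the large subunit and stalk. Points are the 4 libraries; the highest mean is that of Rplp0 at 381 CPM per kilobase and the lowest with a read that of Rpl3l at 0.370.

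No ribosomal protein gene passed the test between agonist and control wells. With edgeR's quasi-likelihood test and Benjamini-Hochberg adjustment, 0 of the 82 members passed an adjusted p of 0.05, as did 0% of the 18297 genes. With the pool as a block, 0 members passed, beside 0.00547% of all genes, which is 1 gene. No member had an unadjusted p under 0.05 in either fit, against 1.58% of all genes without the block and 3.53% with it. DESeq2 and limma-voom called 0 members too. Unadjusted p-values depended on the setting: DESeq2 gave 0.0253 for Rpl13 and 0.0414 for Rps2. With no filter, edgeR's quasi-likelihood test gave 0.00922 for Rpl13 and 0.0230 for Rps2. With 2 libraries a group, a p that misses the threshold does not show that a gene was alike in both conditions, and the 95% interval of each named member is wide: that of Rplp0 ran from -0.89 to 0.50 and that of Rpsa from -0.80 to 0.46 on the log2 scale.

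The fitted values of the members lay close together, slightly on the lower side. The median log2 fold change of agonist over control was -0.16 over the 82 members, against -0.05 over all tested genes. Their interquartile range was 0.14, against 0.55 over all tested genes and 0.24 over the 3700 tested genes of at least 47.9 CPM, the members' lower quartile. Below 0 were 69 of the 82 members (84.1%), against 55.4% of all genes. Without control replicate 2, 12 of the 82 members were below 0 and their median was 0.15, while leaving out any other library gave medians of -0.30 to -0.07. Without agonist replicate 3, the median was -0.07 for the members and -0.09 for all tested genes, so that the members no longer lay below other genes. The members share libraries and a scaling, so their number does not stand for independent evidence.

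The 2 pairs of wells gave different pictures. In the wells numbered 2, the median difference of agonist minus control was -0.31 on the log2 CPM scale, and 73 of 82 members were lower in the agonist well, against 56% of all genes. In the wells numbered 3 the median was 0.03, and 28 of 82 were lower, against 50.6%. Over the 3700 tested genes of at least 47.9 CPM, the medians were -0.17 in the wells numbered 2 and 0.06 in those numbered 3. The members' interquartile range was 0.20 in the wells numbered 2, against 0.43 for these abundant genes, and 0.11 against 0.20 in the wells numbered 3. In both pairs 25 members (30.5%) were lower with the agonist, near the 27.8% of all genes. Higher in both pairs were 6 members (7.32%), against 21% of all genes: Rpl30, Rpl39, Rplp2, Rps2, Rps29 and Rps4l. Both agonist libraries lay below both control libraries in 4 members (Rpl24, Rpl26, Rpl32l and Rpl6l), which is 4.88% against 13.5% of all genes, and above them in 2 (Rplp2 and Rps2), which is 2.44% against 11.4%.

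**Figure D2:**
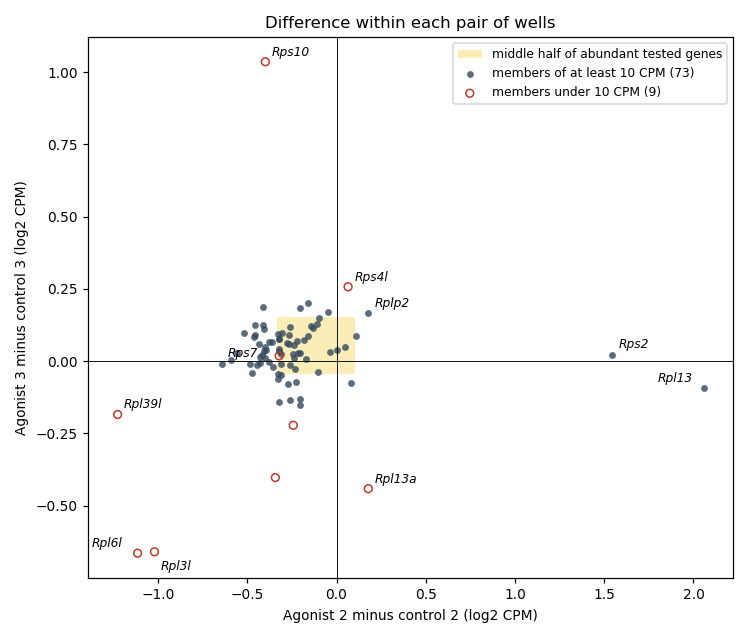
Difference of agonist minus control well on the log2 CPM scale for each tested member, with the wells numbered 2 on the horizontal axis and those numbered 3 on the vertical axis. Filled points are the 73 members of at least 10 CPM, open points the 9 below that, and the shaded box spans the interquartile ranges of the 3700 abundant genes. Most points lie left of 0 and near 0 in height, with medians of -0.31 and 0.03, and Rpl13 lies far to the right at 2.06.

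Most members were highest in the same library. Control replicate 2 was the highest of the 4 libraries in 70 of the 82 members (85.4%), against 31.4% of all tested genes. Of the 73 members of at least 10 CPM, 65 were highest in control replicate 2, while 47 were lowest in control replicate 3 and 21 in agonist replicate 3. Rpl13, Rps2 and Rps27l stood apart from the rest, a choice made after their values were seen. In the other 70 genes the highest library was between 1.17-fold and 1.93-fold above the lowest, with a median of 1.45-fold. In the wells numbered 3, 51 of the 73 were higher and 22 lower with the agonist, and all 73 lay between -0.15 and 0.20.

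**Figure D3:**
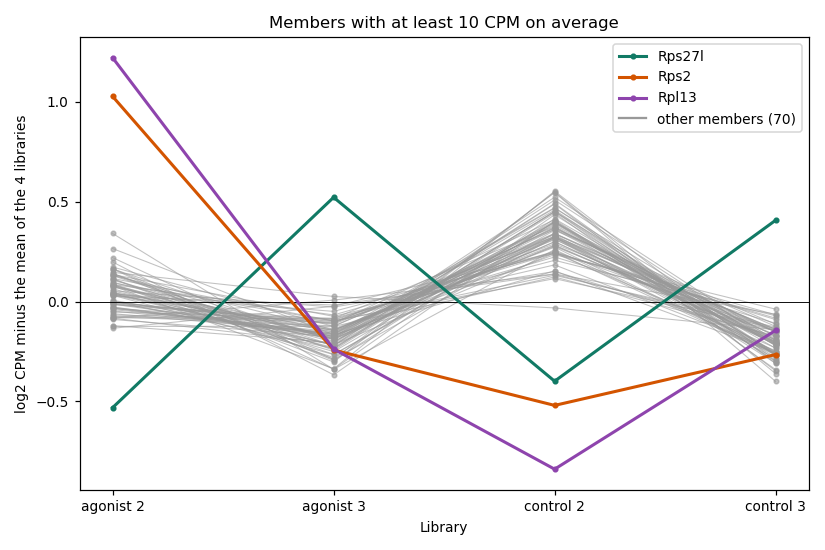
Deviation of each member of at least 10 CPM from its own mean over the 4 libraries, on the log2 CPM scale, by library. Of the 73 lines, 65 peak in control replicate 2, while Rpl13, Rps2 and Rps27l take other courses.

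Rpl13 and Rps2 were the exceptions in the wells numbered 2. Both encode core ribosomal proteins, of the large and the small subunit. Rpl13 had 161 and 58.5 CPM in agonist wells, against 38.5 and 62.4 CPM in control wells, from 1678 to 8352 reads a library. Rps2 had 131 and 54.4 CPM in agonist wells, against 44.9 and 53.6 CPM in control wells. Agonist replicate 2 was highest and control replicate 2 lowest in both genes, an order found in 2.44% of the members and 10.9% of all tested genes, while the wells numbered 3 were nearly level. The difference was 2.06 for Rpl13 and 1.55 for Rps2 in the wells numbered 2, and -0.09 and 0.02 in those numbered 3. No other member passed 1 in the wells numbered 2, as 13.8% of all tested genes did. The fitted log2 fold change was 1.12 for Rpl13 (SE 0.52, edgeR adjusted p = 0.9999), which did not pass the test, and it lay between 0.25 and 1.66 when each library was left out in turn. For Rps2 it was 0.91 (SE 0.45, edgeR adjusted p = 0.9999), between 0.18 and 1.41. Rpl13 has 6 rows named as its pseudogenes, with 153 reads over all libraries beside 16605 of its own. Rps2 has 11 such rows, with 507 reads beside 14660. Other members have more rows, such as Rpl31 and Rps12 with 24 each.

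Of the 14 members named for roles outside the ribosome or in disease, 12 were highest in control replicate 2, all but Rpl13a and Rplp2, which were highest in agonist replicate 2. Rps6, the small-subunit protein phosphorylated by S6 kinase downstream of mTORC1, had 142 and 129 CPM in agonist wells and 187 and 128 CPM in control wells (log2 fold change -0.22, SE 0.30). Rpsa, also known as the laminin receptor precursor, had 360.3 and 389 CPM in agonist wells and 469 and 371 CPM in control wells (-0.17, SE 0.26). Rps3, which also binds the NF-kB subunit p65, had 398 and 342 CPM in agonist wells and 498 and 333 CPM in control wells (-0.17, SE 0.30). In all 3 genes control replicate 2 was highest. Control replicate 3 lay between the agonist libraries in Rpsa and below both in Rps6 and Rps3. Rps7 had the lowest fold change among the members of at least 10 CPM, at -0.37 (SE 0.33), with 97.1 and 91.6 CPM in agonist wells and 152 and 92.1 CPM in control wells.

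Rps19 and Rps14, whose loss in people underlies Diamond-Blackfan anaemia and the 5q- syndrome, gave -0.22 (SE 0.28) and -0.24 (SE 0.29) on the log2 scale. Rpl5 and Rpl11 bind Mdm2 together with 5S ribosomal RNA when ribosome assembly fails. Rpl5 had 99.6 and 96.6 CPM in agonist wells and 107 and 88.3 CPM in control wells, and its fitted log2 fold change was 0.00 (SE 0.27). Rpl11 had 54.3 and 44.9 CPM in agonist wells and 71.9 and 43.8 CPM in control wells, and its fitted log2 fold change was -0.22 (SE 0.34). Their levels overlapped between the conditions. Rpl22, needed for the development of alpha-beta T cells in mice, had 40.4 and 36.6 CPM in agonist wells and 48.5 and 40.1 CPM in control wells (-0.20, SE 0.28). Rpl38, needed for translation of Hox messengers in mouse embryos, gave -0.18 (SE 0.30), and Rpl41, which encodes a very short basic peptide, gave -0.15 (SE 0.31).

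The fitted log2 fold changes of the 3 stalk genes were not all of the same sign, and differences among these genes were not tested. Rplp1 had 96.3 and 81.6 CPM in agonist wells and 131 and 82.4 CPM in control wells, and Rplp0 had the same order of libraries at its top. Rplp2 had 89.2 and 82.0 CPM in agonist wells and 78.8 and 73.1 CPM in control wells, so that both agonist libraries were above both control libraries. Its fitted log2 fold change was 0.17 (SE 0.26, edgeR adjusted p = 0.9999), with a range of 0.15 to 0.23 when each library was left out in turn. Rplp1 gave -0.27 (SE 0.32) and Rplp0 -0.20 (SE 0.29). The largest negative fitted values belonged to members with few reads. Rpl6l had 16 and 17 reads in agonist wells and 31 and 26 in control wells (-0.99, SE 0.85), and Rpl3l had 29 and 15 reads in agonist wells and 51 and 23 in control wells (-0.97, SE 0.90).

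With all libraries, the members' median difference was larger between the pools than between the conditions. Without control replicate 2, the median was -0.18 for pool 3 minus pool 2 and 0.15 for agonist over control. Wells numbered 3 were set against wells numbered 2 with the condition as a covariate, which compares 1 pool with 1 pool, so that p-values measure only the spread between wells. The wells of pool 2 had reads of Xist and none of Ddx3y, and those of pool 3 the reverse. A difference in sex therefore cannot be told apart from other differences between the pools. The median log2 difference of pool 3 minus pool 2 was -0.37 over the 82 members, against -0.01 over all tested genes, and 79 of the 82 (96.3%) were below 0, against 50.4%. Pool 3 was lower in both conditions for 71 members (86.6%), against 31.1% of all genes, and both pool 3 libraries lay below both pool 2 libraries for 68 (82.9%), against 25.2%. In the 73 members of at least 10 CPM, the median was -0.19 in the agonist wells and -0.52 in the control wells, with 70 genes below 0 in each. No member passed an adjusted p of 0.05 in edgeR's quasi-likelihood test, while 0.394% of all genes did, which is 72 genes. Unadjusted p-values under 0.05 were found for 8 members that were lower in pool 3 (9.76%, against 7.71% of all genes), among them Rpl3, Rpl36 and Rps27. The same held for 2 that were higher in pool 3, Rps27l and Rps4l (2.44%, against 6.15%).

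The largest negative difference among members of at least 10 CPM was that of Rpl36, a large-subunit gene. Rpl36 had 54.3 and 50.2 CPM in the agonist and control wells of pool 3, against 73.1 and 96.7 CPM in those of pool 2 (-0.69, SE 0.26, edgeR adjusted p = 0.278). Both pool 3 wells lay below both pool 2 wells. The 4 X-linked members were also lower in pool 3, by fitted log2 differences of -0.53 for Rpl10, -0.50 for Rps4x, -0.32 for Rpl36a and -0.23 for Rpl39, within the range of the others.

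Rps27l, Rps4l and Rpl39l were higher in pool 3 in both conditions (3.66% of members, against 29.7% of all tested genes). In the same 3 genes both pool 3 wells lay above both pool 2 wells, as in 24% of all tested genes. Each is a paralogue or copy of a member that was lower there. Rps27l, a p53-inducible paralogue of Rps27 (chromosome 9, 66946086 to 66949516, GRCm38), had 332 and 306 CPM in the agonist and control wells of pool 3, against 159.8 and 175 CPM in those of pool 2. The log2 difference was 0.93 (SE 0.23, edgeR adjusted p = 0.119), and DESeq2 gave an adjusted p of 0.0120. Rps27 (chromosome 3, 90212522 to 90213651) had 148 and 152 CPM in pool 3, against 210.5 and 226 CPM in pool 2 (-0.54, SE 0.23, edgeR adjusted p = 0.342). Per length, the ratio of Rps27l to Rps27 was therefore 2.87 and 2.58 in pool 3, against 0.971 and 0.991 in pool 2. The ratio hardly differed between the wells of a pool. Between conditions Rps27l gave 0.03 (SE 0.44) and Rps27 gave -0.08 (SE 0.33). The TOP-like pyrimidine run printed above crosses the start of Rps27, whereas at the start shown for Rps27l the runs end before it and resume just after it.

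Rps4l is annotated as a transcribed processed pseudogene and was paired here with Rps4x. Rps4l had 539 and 415 reads in the agonist and control wells of pool 3, against 130 and 104 reads in those of pool 2. Its log2 difference was 1.83 (SE 0.39, edgeR adjusted p = 0.0846), and DESeq2 gave an adjusted p of 0.00940. Rps4x had 126 and 132 CPM in pool 3, against 163 and 205 CPM in pool 2 (-0.50, SE 0.24). Rps4x was read 7.70-fold and 9.60-fold above Rps4l per length in pool 3, against 37.7-fold and 49.5-fold in pool 2. Reads that Rps4x and Rps4l share cannot be assigned, so both counts are uncertain. Rpl39l, a paralogue of Rpl39 known from male germ cells, had 37 and 39 reads in pool 3, against 7 and 16 reads in pool 2 (1.62, SE 1.02, edgeR adjusted p = 0.535). Rpl39 was read 31.5-fold and 26.8-fold above Rpl39l per length in pool 3, against 177-fold and 64.7-fold in pool 2. Rpl3l, a paralogue of Rpl3 known from striated muscle, was below 0 like its partner, at -1.24 (SE 0.87) and -0.58 (SE 0.24). Rpl36al, the autosomal copy of Rpl36a, lies outside the symbol rule and had 41 and 42 reads in agonist wells and 25 and 48 in control wells.

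**Figure D4:**
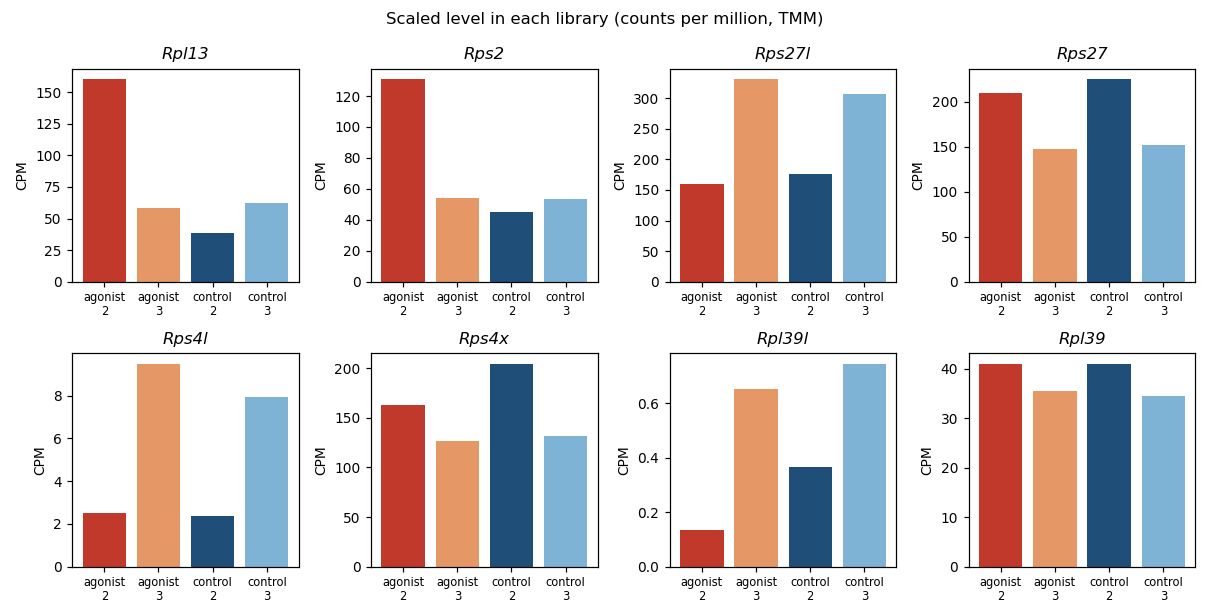
CPM of single ribosomal protein genes in each library, 1 panel a gene, with agonist wells left of control wells. Rpl13 and Rps2 stand out in agonist replicate 2 at 161 and 131 CPM, and Rps27l and Rps4l are higher in both wells numbered 3.

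Most markers of T and B cells were lower in pool 3, while other lists varied. The summed level of 20 T cell markers was 979 and 1240.1 CPM in the agonist and control wells of pool 3, against 1582 and 2032 CPM in those of pool 2, and 19 of the 20 genes were lower in pool 3 in both conditions. The 17 B cell markers summed to 1124 and 1393 CPM in pool 3, against 2100 and 2306 CPM in pool 2, with 15 of 17 lower in both conditions. The sum of 8 NK cell markers was higher in pool 3, at 160.2 and 172 CPM against 136 and 147 CPM. Of these 8, 4 were lower in pool 3 in both conditions, as were 31.1% of all tested genes. Itgax was lower in pool 3 (log2 difference -0.87, edgeR adjusted p = 0.134). Of the 15 dendritic cell markers, 2 were lower there in both conditions. For the conditions, 17 of 20 T cell and 13 of 17 B cell markers were lower in the agonist well of both pairs. The share over all tested genes was 27.8%. Over the 4 libraries, the unscaled share of reads in ribosomal protein genes fell in the order control replicate 2, agonist replicate 2, control replicate 3, agonist replicate 3. The T cell, B cell, plasmacytoid dendritic cell and stromal and endothelial marker sums had the same order. On the CPM scale of those sums, the members summed to 10392 and 9157 CPM in agonist wells and 12901 and 8869 CPM in control wells. That order, with control replicate 3 lowest, is the one of the monocyte and macrophage sums. The part of any of these cell types in the members' levels was not tested. In bulk samples fewer cells of a type and less RNA per cell cannot be told apart. Mitochondrial genes held 1.48% and 1.77% of gene reads in the agonist and control wells of pool 3, against 2.23% and 2.20% in pool 2.

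Among the other marker lists, plasma cell markers were lower in the agonist well of both pairs when summed. The 8 markers summed to 74.7 to 152 CPM in agonist and 302 to 495 CPM in control wells. Among them Igha, the heavy chain of IgA antibodies, was the only gene of all tested that passed between conditions with the pool as a block (log2 fold change -3.13, edgeR adjusted p = 0.0140). It had 50.04 and 16.8 CPM in agonist wells, against 394 and 164 CPM in control wells, so much of the control sums was Igha. Of the 7 tested plasma cell markers, 2 had a fitted value below 0, and the median log2 fold change was 0.30. Their median difference was 0.63 in the wells numbered 2 and -0.23 in those numbered 3. Lower with the agonist in both pairs were 2 of the 7, Igha included, and higher in both were 2. The shares over all tested genes were 27.8% and 21%. Sums for 10 monocyte and macrophage markers were 3446 to 5032 CPM in agonist and 3088 to 5602 CPM in control wells, and for 8 plasmacytoid dendritic cell markers 659 to 969 and 866 to 1201 CPM. The 8 NK cell markers summed to 136 to 160.2 CPM in agonist and 147 to 172 CPM in control wells, and the 8 stromal and endothelial markers to 47.3 to 75.3 and 66.5 to 99.98 CPM. The 6 neutrophil markers were near 0, at 4.29 to 6.58 CPM in agonist and 4.69 to 4.80 CPM in control wells, with Ly6g at 0 reads in all libraries.

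**Figure D5:**
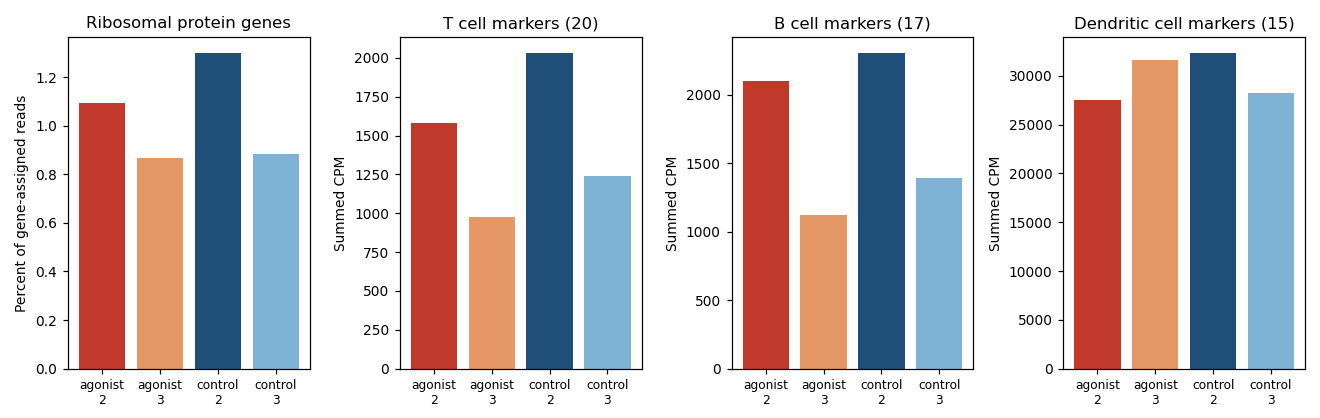
Share of gene-assigned reads in ribosomal protein genes, in percent, and summed CPM of T cell, B cell and dendritic cell markers, by library, with bars starting at 0. The first 3 panels share an order with control replicate 2 highest (1.30% in the first) and agonist replicate 3 lowest (0.867%), and the dendritic cell panel does not. The share is not scaled, and as summed CPM the members were lowest in control replicate 3 (8869 CPM). Itgax, a dendritic cell marker, has the order of the first 3 panels.

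Genes that work with the ribosomal proteins were read in lists chosen by function, and no gene of these lists passed the test between conditions, with or without the block. The 4 ribosomal proteins outside the symbol rule had a median log2 fold change of -0.26, with medians of -0.47 in the wells numbered 2 and -0.06 in those numbered 3. Among them Fau, made as a fusion with a ubiquitin-like protein, had 104 and 103 CPM in agonist wells and 148 and 98.8 CPM in control wells, and Rps3a1 had 251 and 214 CPM in agonist wells and 338 and 221 CPM in control wells. Both followed the order of most members, with control replicate 2 highest. The 6 tested of 7 ribosomal protein-like genes had a median of -0.09, with Rpl22l1, a paralogue of Rpl22, at 0.31 (SE 0.42).

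The 20 translation elongation factors and other classical TOP messenger genes had a median log2 fold change of -0.18, with -0.31 in the wells numbered 2 and 0.02 in those numbered 3. Eef1a1, which brings aminoacyl-tRNA to the ribosome, had 2326 and 2317 CPM in agonist wells and 3157 and 2102 CPM in control wells. Not all genes of the list followed. Vim, which encodes an intermediate filament protein, had 233 and 189 CPM in agonist wells and 103 and 181 CPM in control wells (0.57, SE 0.35). Eif5a, which helps ribosomes past difficult peptide bonds, had 219.7 and 182 CPM in agonist wells and 103 and 178 CPM in control wells (0.52, SE 0.34). Vim and Eif5a had the library order of Rpl13 and Rps2, with agonist replicate 2 highest and control replicate 2 lowest.

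The 24 initiation factors had a median of -0.06, the 45 ribosome biogenesis genes one of -0.11, and the 18 genes of TOP regulation, mTORC1 and ribosome sensing one of 0.05. In the last list Mtor, the kinase of mTORC1, had 128 and 89.2 CPM in agonist wells and 60.4 and 81.6 CPM in control wells (0.61, SE 0.32). Mdm2, the p53 ligase that Rpl5 and Rpl11 bind, had 173 and 159 CPM in agonist wells and 95.3 and 143 CPM in control wells (0.48, SE 0.30). For both genes the agonist wells lay above the control wells without passing the test (edgeR adjusted p = 0.9999). The 11 tested host genes of small nucleolar RNAs, several of which carry TOP motifs, had a median of -0.04 between conditions and of -0.51 for pool 3 minus pool 2. Gas5 in that list had 144 and 134 CPM in the agonist and control wells of pool 3, against 179.8 and 199.9 CPM in those of pool 2.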

How the data were processed

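The authors deposited whole-number read counts per gene for 4 libraries, without normalization. The aligner STAR 2.7, the counter HTSeq 0.11.1 and the genome GRCm38 (mm10) are named per the submitters' processing notes. No source used here gives the strand setting, and reads of overlapping antisense genes cannot be told apart. Summary lines without a gene stayed out of library sizes. They held, per library, 15.96% to 19.99% of reads as falling in no gene, 5.77% to 6.50% as ambiguous between genes, and 6.54% to 6.98% as not uniquely aligned. Gene reads per library are given with the results.

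All 55450 rows matched GENCODE M21, which supplied coordinates and exon lengths. The counts were analysed with edgeR 4.0.16 (TMM factors 0.947 to 1.05, default filter with a minimum count of 10, 18297 genes) in R 4.3.3. The test was two-sided with group as the only term, with Benjamini-Hochberg adjustment over the 18297 genes. SEs were derived from the fold change and the F statistic. Values of single libraries on the log2 CPM scale used a prior count of 2. Alternatives used DESeq2 1.42.0 and limma 3.58.1, other scalings and filters, the replicate block and each library left out in turn. Tables and figures used Python 3.11.15, NumPy 2.4.6, pandas 2.3.3, SciPy 1.17.1 and matplotlib 3.10.9. The fits were tested on simulated counts with no difference between pools. That test does not show how the fits treat such a difference.

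The protocol states that each sample's cells were divided between wells, so the numbers pair the libraries, and same-numbered libraries deviated together (r = 0.288 across 18297 genes). A pool holds 2 nodes, and whether the nodes of a pool came from different mice is not stated.

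The members and the gene lists were chosen with earlier results of these data known. Named members are the 5 with the highest and the 5 with the lowest level per length, the 5 with the largest fitted change in each direction, the 3 highest and 3 lowest between pools, paralogue pairs, and members with known roles outside the ribosome or in disease. From each pathway list up to 4 genes with the smallest p were eligible. Other named genes, among them Rpl30, Rpl26, Rps29, Eef1a1, Igha and Gas5, were chosen after their values were seen. Some genes that these rules would name are not reported here.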

Additional observations from a re-analysis of the deposited data

Results flagged for a closer look

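The members' median difference between agonist and control well was -0.31 in the wells numbered 2 and close to level, at 0.030, in the wells numbered 3 on the log2 CPM scale. Over the 3700 tested genes of at least 47.9 CPM, the medians also differed in sign, at -0.17 and 0.06. With 1 pair of wells per pool, the difference between the pairs was not tested. Rpl13 had a difference of 2.06 in the wells numbered 2 and of -0.094 in the wells numbered 3, and this was not tested either. Rps10 had -0.40 in the wells numbered 2 and 1.04 in the wells numbered 3, from 34 to 78 reads a library, untested for the same reason. These were the members with opposite directions and a gap of at least 1 between the pairs.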

How the results depend on the processing

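No member passed between conditions under any alternative run. Genes called among all tested were 0 as reported, 9 with no filter, 7 with DESeq2, 1 with the replicate block, 6 with the replicate block and DESeq2, and 0 to 2 with a library left out. At an unadjusted p under 0.05 there were 289 genes without and 645 with the replicate block. The members' median fell between -0.30 and 0.15 with a library left out (0.15 without control replicate 2), and the members below 0 numbered 12 to 76 (12 without control replicate 2). Other scalings and filters kept the median below 0. For the pools, 0 members passed as reported, and 2 with no filter and 2 with DESeq2, Rps27l and Rps4l; with a library left out no test was possible, and the median lay between -0.51 and -0.18. With the longest transcript as length, 6 of the 10 highest members were shared. The sign changed for Rpl5 without composition scaling (-0.0018) and for Rps27l with limma-voom (-0.0103) and with the replicate block (-0.0086); the block changed no other call. With a library left out, 24 of 32 named members changed sign, 18 of them without control replicate 2. Their lowest and highest log2 fold changes were -0.35 and 0.27 for Rpl10, -0.46 and 0.18 for Rpl11, -0.49 and 0.25 for Rpl13a, -0.40 and 0.30 for Rpl3, -0.52 and 0.34 for Rpl36, -0.072 and 0.28 for Rpl36a, -0.058 and 0.15 for Rpl39, -2.04 and 0.26 for Rpl39l, -0.47 and 0.17 for Rpl4, -0.35 and 0.19 for Rpl41, -0.057 and 0.15 for Rpl5, -0.38 and 0.13 for Rplp0, -0.49 and 0.11 for Rplp1, -0.23 and 0.98 for Rps10, -0.40 and 0.043 for Rps14, -0.36 and 0.044 for Rps19, -0.32 and 0.24 for Rps27, -0.60 and 0.55 for Rps27l, -0.35 and 0.15 for Rps3, -1.05 and 1.38 for Rps4l, -0.42 and 0.13 for Rps4x, -0.39 and 0.077 for Rps6, -0.61 and 0.034 for Rps7, and -0.25 and 0.012 for Rpsa. The cause was not tested. The alternatives added after seeing the data were the block with DESeq2, the members without Rpl13 and Rps2, those of at least 10 CPM and the protein-coding ones; setting Rpl13, Rps2 and Rps27l aside was also chosen then.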
